A study of Homo sapiens with 2 samples.

Results

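The RB family and the E2F transcription factors were examined in PC3CR and PC3 cells. These genes were taken by name, and the 10 members were the pocket protein genes RB1, RBL1 and RBL2, the activating E2F genes E2F1, E2F2 and E2F3, the repressive E2F genes E2F5, E2F7 and E2F8, and TFDP1, which encodes the DP1 partner of E2F proteins. All 10 were measured, by 23 of the 54613 probe sets on the arrays, and they are 10 of the 19775 genes that could be named from 1 gene symbol. PC3 is a human prostate cancer cell line, and PC3CR is its subline resistant to cabazitaxel (CBZ), a taxane that stabilizes microtubules. The subline had been passaged with CBZ for 18 months and was examined after 3 months off the drug, while the parental line is given with no such exposure. Both were kept in the same serum-containing medium, and PC3CR is a single subline. Total RNA of each was hybridized to 1 array, so that no value has a replicate and no test was possible. Differences are given as PC3CR minus PC3 on the log2 scale of the robust multichip average (RMA), where a difference of 1 is 2-fold, the limit used in the study's methods.

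Pocket proteins bind E2F transcription factors and hold the genes of DNA replication silent in resting and early G1 cells. Cyclin-dependent kinases (CDKs) phosphorylate the pocket proteins as cells commit to division, and the released E2F1, E2F2 and E2F3, each paired with a DP protein, then activate replication genes. E2F5 acts mainly with the RBL1 (p107) and RBL2 (p130) proteins as a repressor, RBL1 and RBL2 also join the MuvB proteins in the DREAM complex of non-dividing cells, and E2F7 and E2F8 bind DNA without DP or pocket proteins and shut replication genes off again later in the cycle. Loss of RB1 is a known event in advanced prostate cancer. The study's exome sequencing identified no genetic alteration of RB1 in PC3CR.

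Several members are themselves regulated through E2F sites near their start, so the promoters were read first. The 300 bases around the listed starts (250 before, 50 after) were taken from RefSeq on GRCh38.p14 for 8 members. They were searched on both strands for the E2F consensus as 8 words of 8 letters, TTTCCCGC, TTTCGCGC, TTTGCCGC, TTTGGCGC, TTTCCCGG, TTTCGCGG, TTTGCCGG and TTTGGCGG, where matches on opposite strands may overlap. Of all 35116 windows in the table, 6.19% held at least 1 match and 0.379% held at least 2. Over the 15384 measured genes with a window, each read by its window with the most matches, the shares were 10% and 0.663%. Among the members, E2F1 had 3 matches, E2F2, E2F3 and RBL1 had 2 each, and TFDP1 had 1. Another listed start of E2F3, 1735 bases inside the gene, had no match in its window. The windows of E2F7 and RBL2 had none. The only listed start of RB1 lay 172699 bases inside the gene, and its window is therefore not read as the RB1 promoter. E2F5 and E2F8 were not examined for promoters. The 70 bases that hold the matches are shown because they set the activating E2F genes and RBL1 side by side, with matches in capitals and reading 5′ to 3′ along the gene.
E2F1, chr20:33686386-33686455, minus strand, bases -70 to -1 from the start: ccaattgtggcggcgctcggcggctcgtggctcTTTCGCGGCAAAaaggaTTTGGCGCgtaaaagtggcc
E2F2, chr1:23531234-23531303, minus strand, bases -70 to -1: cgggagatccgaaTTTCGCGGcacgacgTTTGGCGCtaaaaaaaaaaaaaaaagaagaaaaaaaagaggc
E2F3, chr6:20401809-20401878, plus strand, bases -70 to -1: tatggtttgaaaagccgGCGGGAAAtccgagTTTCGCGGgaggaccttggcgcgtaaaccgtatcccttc
RBL1, chr20:37095998-37096067, minus strand, bases -70 to -1: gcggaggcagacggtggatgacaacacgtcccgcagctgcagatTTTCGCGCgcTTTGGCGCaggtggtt
TFDP1, chr13:113584602-113584671, plus strand, bases -151 to -82: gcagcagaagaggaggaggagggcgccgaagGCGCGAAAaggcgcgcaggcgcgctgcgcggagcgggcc

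The first and last words of E2F1, E2F2 and RBL1 read in the direction of the gene, and the last is TTTGGCGC in each. The middle word of E2F1, which overlaps its first, and the first word of E2F3 read on the opposite strand. The words of a pair began 15 bases apart in E2F2, 14 in E2F3 and 10 in RBL1. A match to these letters is not evidence of binding.

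In PC3CR cells, 5 of the 10 members were at least 2-fold higher than in PC3 cells and 1 was at least 2-fold lower, where the shares over all genes were 9.84% upward and 6.72% downward. The 5 were all 3 pocket protein genes, TFDP1 and E2F8, and the lower gene was E2F5. None of the 3 activating E2F genes passed 2-fold. The median difference was 1.47 for the pocket proteins, 0.61 for the repressive E2Fs and 0.27 for the activating E2Fs, and it was -0.04 over all genes. With each gene given as the mean over its probe sets, 3 members were at least 2-fold higher, since RB1 and RBL1 came to 0.99 and 0.79, and the median of the repressive E2Fs was 0.24. With only genes that reached the median of genes on their brighter array, E2F2 and RBL1 dropped out and the median of the activating E2Fs was -0.30. More cells in a cycle phase and more RNA per cell cannot be told apart in RNA from whole cultures. The plot of member values shows both arrays for each gene.

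**Figure D1:**
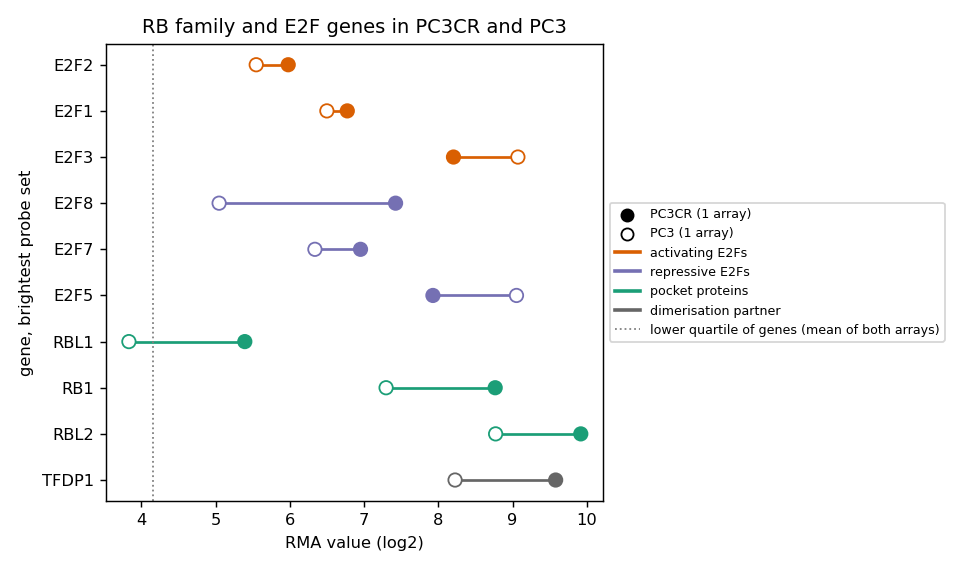
RMA values (log2, horizontal axis) of the brightest probe set of each of the 10 members, filled circles for PC3CR and open circles for PC3, with 1 array per cell line and no error bars. The 3 pocket protein genes, TFDP1 and E2F8 have the filled circle far to the right, whereas for E2F3 and E2F5 it lies to the left.

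RB1, which encodes the retinoblastoma protein, was at 8.77 in PC3CR and 7.30 in PC3, a difference of 1.47 or 2.77-fold. Its second probe set was at 5.53 in PC3CR and 5.02 in PC3, a difference of 0.51. Both probe sets of RB1 were thus higher in PC3CR, but only the brighter passed 2-fold, and their mean difference was 0.99, just inside the limit.

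RBL1, whose protein p107 is made mainly in dividing cells, was at 5.39 in PC3CR and 3.83 in PC3, a difference of 1.56 or 2.95-fold. The PC3 value lay below the lower quartile of genes on that array (4.22), so the size of this difference is limited by the floor of the array. Of its 4 probe sets, the next was at 5.04 in PC3CR and 3.84 in PC3. The other two probe sets of RBL1 were dim on both arrays, at 3.62 and 3.17 in PC3CR and at 3.17 and 3.21 in PC3. The mean difference over the 4 probe sets was 0.79, which is within 2-fold.

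RBL2, whose protein p130 is the pocket protein of resting cells, was at 9.92 in PC3CR and 8.77 in PC3, a difference of 1.15 or 2.21-fold. Its second probe set was at 7.69 in PC3CR and 6.25 in PC3, a difference of 1.44. RBL2 was the pocket protein gene with the smallest difference from its brightest probe set, and the one whose probe sets all passed 2-fold. Of the 8 probe sets of pocket protein genes, 5 passed 2-fold upward in PC3CR and none downward, where the shares over the 41091 probe sets with 1 gene symbol were 8.94% upward and 5.89% downward.

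TFDP1, whose DP1 protein is one of the DP partners with which E2F1 to E2F6 bind DNA, was at 9.58 in PC3CR and 8.23 in PC3. The difference was 1.35 or 2.56-fold. Its other probe sets were at 7.67 and 6.92 in PC3CR and at 6.41 and 6.43 in PC3. All 3 probe sets of TFDP1 were higher in PC3CR, 2 of them by at least 2-fold.

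The activating E2Fs differed in direction, and none passed 2-fold. E2F1 was at 6.77 in PC3CR and 6.50 in PC3, a difference of 0.27. Its second probe set was at 6.21 in PC3CR and 5.77 in PC3. E2F2 was at 5.98 in PC3CR and 5.55 in PC3, a difference of 0.43. The other probe sets of E2F2 were near the floor, at 4.31 and 4.13 in PC3CR and at 4.03 and 4.30 in PC3, and they differed in opposite directions. E2F1 and E2F2 therefore lay well within 2-fold whichever probe set was read.

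E2F3 was at 8.20 in PC3CR and 9.07 in PC3, a difference of -0.87, which makes PC3 1.82-fold higher. Its second probe set was at 7.16 in PC3CR and 8.13 in PC3, a difference of -0.97. Both were lower in PC3CR and just inside the 2-fold limit, in the opposite direction from E2F1 and E2F2. Of the 7 probe sets of activating E2Fs, none passed 2-fold, and their differences ranged between -0.97 and 0.44.

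The repressive E2Fs had the widest range. E2F8, an atypical E2F with a pair of DNA-binding domains, was at 7.42 in PC3CR and 5.05 in PC3, a difference of 2.38 or 5.19-fold. This was the largest difference of any member, and 139 of the 19775 genes (0.703%) had a larger one. It rests on a single probe set. E2F7, its closest relative, was at 6.95 in PC3CR and 6.34 in PC3, a difference of 0.61. Its second probe set was at 4.80 in PC3CR and 4.93 in PC3, a difference of -0.13. The atypical pair thus differed in size, and for E2F7 the probe sets disagreed on the direction.

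E2F5 was at 7.93 in PC3CR and 9.05 in PC3, a difference of -1.13, which makes PC3 2.18-fold higher. Its second probe set was at 3.64 in PC3CR and 4.70 in PC3, a difference of -1.05. The PC3CR value of this second probe set lay below the lower quartile of genes on that array (4.10), near the floor, so the size of its difference is limited and the 2-fold call rests on the brighter probe set. Of all genes, 5.51% had a lower difference than E2F5. All 4 probe sets of E2F3 and E2F5, the members that were lower in PC3CR, have identifiers that end in s_at. This suffix marks probe sets whose probes can match more than 1 transcript, and 8 of the 23 probe sets of all members have it. The s_at probe sets of TFDP1, RB1, RBL1 and E2F1 were higher in PC3CR, by 1.26, 0.51, 0.45 and 0.44. Any part of the suffix in these differences was not tested. Over the 5 probe sets of repressive E2Fs the median difference was -0.13, opposite in sign to the median over the 3 genes (0.61).

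**Figure D2:**
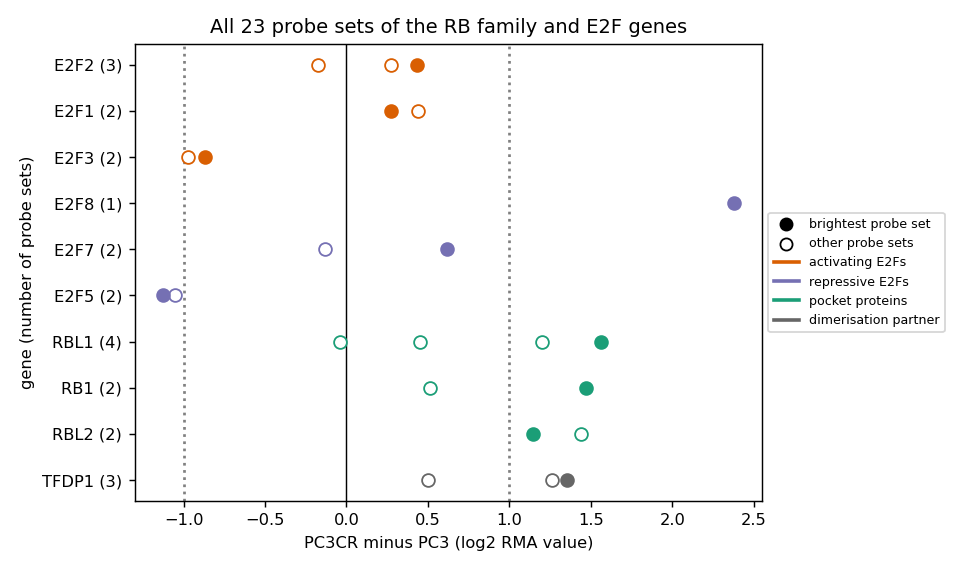
PC3CR minus PC3 (log2 RMA value, horizontal axis) for all 23 probe sets of the 10 members, 1 circle per probe set, filled for the brightest probe set of a gene and open for the others, with dotted lines at 2-fold. Both circles of RBL2 lie beyond the right line and both of E2F5 beyond the left line, while those of RBL1, E2F2 and E2F7 lie on both sides of 0.

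Set against each other, each pocket protein gene had a larger difference than each activating E2F gene, in 9 of 9 pairs, and the class medians were 1.19 apart. The lowest pocket protein difference was 1.15 (RBL2) and the highest activating E2F difference was 0.43 (E2F2). Against the repressive E2Fs the pocket proteins were larger in 6 of 9 pairs, the exceptions being the pairs with E2F8, and the medians were 0.86 apart. The activating E2Fs exceeded the repressive E2Fs in 3 of 9 pairs, all of them with E2F5. In order of difference the members ran E2F8, RBL1, RB1, TFDP1, RBL2, E2F7, E2F2, E2F1, E2F3 and E2F5. RBL1, RB1, TFDP1 and RBL2 lay between 1.56 and 1.15, and without replicates their order has no error to be read against. The PC3 value of RBL1 lay near the floor, so its place is not fixed. As the mean of probe sets the order of these 4 turned round, with RBL2 at 1.29, TFDP1 at 1.04, RB1 at 0.99 and RBL1 at 0.79.

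Promoter words were set beside the members' differences, without E2F8, E2F5 and RB1, whose promoters were not read. RBL1 and E2F1 both carried TTTGGCGC within 20 bases of the start, and RBL1 differed by 1.56 and E2F1 by 0.27. E2F2 and E2F3, each with a pair of words, differed by 0.43 and -0.87. TFDP1 had 1 match and differed by 1.35. RBL2 and E2F7 had no match and differed by 1.15 and 0.61. Any part of these words in the differences was not tested. Of 15384 measured genes with a window, wherever in the gene the listed start lay, 102 had at least 2 matches. Of these 102, 19 passed 2-fold upward in PC3CR and 1 downward, around a median difference of 0.22. Of the 13846 genes with no match, 1373 passed 2-fold upward and 939 downward, around a median of -0.04. RB1 was counted among these through its window inside the gene. The members make up 4 of the 102, and 18 of the other 98 passed 2-fold upward. The highest of these 18 was POGLUT3, at 2.27. Others were UHRF1, which guides maintenance DNA methylation, at 2.23, and LRR1, at 2.18. POLE2, a subunit of DNA polymerase epsilon, was at 2.12, and FHOD3 was at 1.71. POLA2, a subunit of DNA polymerase alpha, was at 1.58. All were named here after their values had been seen, and other genes above POLA2 are not listed.

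The cyclins and kinases that phosphorylate pocket proteins held genes on both sides. Of 10 cyclin and CDK genes, 5 passed 2-fold upward in PC3CR, 1 passed it downward and 4 did neither, around a median difference of 0.75. The shares over all genes were 9.84% upward and 6.72% downward. CCNA2, the cyclin A of S and G2 phase, was at 9.36 in PC3CR and 7.43 in PC3, a difference of 1.92. Its kinase partner CDK2 was at 10.06 in PC3CR and 8.35 in PC3, a difference of 1.70, although 1 of its 3 probe sets differed by -0.31. CCNE2, a cyclin E of the G1 to S transition, was at 7.35 in PC3CR and 5.84 in PC3, a difference of 1.51.

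CDK6, a partner of D cyclins in G1, was at 5.47 in PC3CR and 7.58 in PC3, a difference of -2.11. Of its 7 probe sets, 3 were at least 2-fold lower and 6 were lower by any amount. The 6 measured CDK inhibitor genes all lay within 2-fold, 5 of them higher in PC3CR, with a median of 0.79. The members furthest from 0 were CDKN2A, whose p16 product blocks CDK4 and CDK6, at 10.90 in PC3CR and 9.93 in PC3, and CDKN2B, a related inhibitor, at 7.93 in PC3CR and 7.01 in PC3. All 3 probe sets of CDKN2A were higher in PC3CR, and 1 of them passed 2-fold, at 9.29 in PC3CR and 7.67 in PC3, a difference of 1.61. From their brightest probe sets CDKN2A and CDKN2B differed by 0.97 and 0.92, and 1 of the 6 inhibitor genes was at least 2-fold higher after quantile normalization or as the median of its probe sets.

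The proteins that work with pocket proteins on DNA were read next. Of 8 genes of the MuvB core and its MYB or FOXM1 partners, which take over from the pocket proteins in dividing cells, 2 passed 2-fold upward and 6 stayed within it, around a median of 0.58. Over all genes, 9.84% passed it upward and 6.72% downward. MYBL1 (A-MYB) was at 9.58 in PC3CR and 7.22 in PC3, a difference of 2.36, but its other probe sets differed by 0.06 and -0.18. MYBL2 (B-MYB), a standard E2F target that replaces the pocket proteins on MuvB, was at 7.51 in PC3CR and 6.43 in PC3, a difference of 1.08. After loess centring or quantile normalization, or as the mean of probe sets, 1 of the 8 passed 2-fold upward, and after loess centring 1 also passed it downward. The E2F and DP genes beyond the 10 members lay within 2-fold. E2F6, a repressor that acts without pocket proteins, was at 8.02 in PC3CR and 8.42 in PC3. E2F4, the other partner of p107 and p130, was at 8.07 in PC3CR and 8.26 in PC3. TFDP2, singled out after its values had been seen, differed by -0.15 at its brightest probe set, while 2 of its 4 probe sets were at least 2-fold higher, at 1.26 and 1.34.

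The genes that E2F and MuvB complexes act on were higher as groups. Of 47 measured G1/S target genes of E2F, 26 passed 2-fold upward in PC3CR and none downward, around a median difference of 1.06. Beside this and the next list, the shares over all genes were 9.84% upward and 6.72% downward. MCM10, a replication initiation factor, was at 7.39 in PC3CR and 4.90 in PC3, a difference of 2.49. UHRF1 was at 9.71 in PC3CR and 7.48 in PC3, and POLE2 was at 9.31 in PC3CR and 7.19 in PC3. MCM4, a subunit of the replicative helicase, differed by 1.76, with 1 of 5 probe sets at -0.30. Of 36 G2/M target genes of MuvB complexes, 27 passed 2-fold upward and none downward, around a median of 1.61. All 36 were above 0. The cyclin and CDK genes share 2 genes with each of these lists. ASPM, a spindle pole protein, differed by 3.05, MKI67, the gene of the proliferation marker Ki67, by 2.70, and the kinesin genes KIF11 and KIF14 by 2.52 and 2.35. The target medians thus stood above that of the activating E2Fs (0.27) on the same arrays, and the part of cycle phase in the members' values was not tested.

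**Figure D3:**
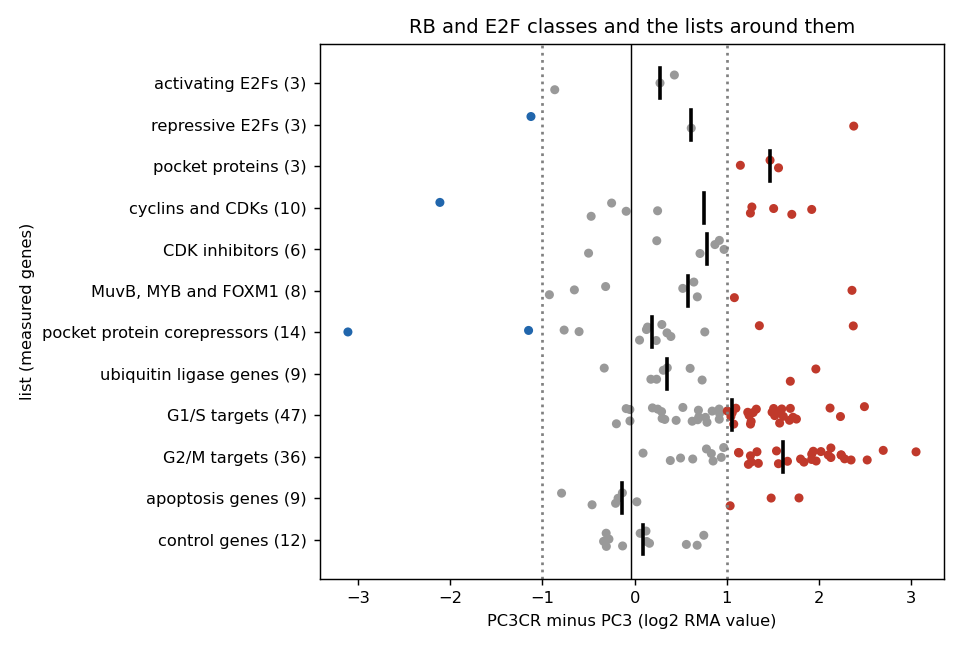
PC3CR minus PC3 (log2 RMA value, horizontal axis) for 3 classes of members and 9 gene lists, 1 point per gene, and brackets give how many were measured. Points past 2-fold are red when PC3CR is higher and blue when it is lower, and the rest are grey. Short black bars are medians, the thin line is the median of all genes (-0.04) and dotted lines mark 2-fold, and the G1/S and G2/M targets have no blue point.

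Members were also read beside their neighbours on the chromosome. For each member, 10 genes on either side were taken from those with a value no lower than the median of genes on the array where they were brighter, 14 in all for TFDP1. The E2F8 difference of 2.38 was above all 20 of its neighbours, which had a median of -0.02 and a highest value of 1.04. RBL1 at 1.56, from its brightest probe set, was likewise above all 20 of its neighbours, with a median of -0.45 and a highest value of 1.14. RBL1 itself did not reach the signal level asked of the neighbours. The mean over its 4 probe sets was 0.79, under that highest value. RB1 and TFDP1 both lie on chromosome 13, where the median difference was 0.30. Their neighbours had medians of 0.20 and 0.33, against member differences of 1.47 and 1.35. The highest neighbour values were 1.52 for RB1 and 2.75 for TFDP1, so neither member stood above all of its neighbours. Of the 20 neighbours of RB1, 2 passed 2-fold upward and 5 downward. Of the 14 neighbours of TFDP1, 3 passed 2-fold upward and 1 downward.

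RBL2 lay among genes that were mostly higher, 18 of 20 above 0 with a median of 0.53. E2F1 and RBL1 share chromosome 20, where the median was -0.25, and 4 of the 20 neighbours of E2F1 were above 0. E2F5 lay in a mixed stretch in which 5 neighbours passed 2-fold upward and 6 downward, around a median of -0.48. E2F3 differed by -0.87 among neighbours with a median of 0.19. E2F7 differed by 0.61 among 20 neighbours with a median of 0.47, of which 15 were above 0. Among them, 7 passed 2-fold upward and 2 downward. E2F2 differed by 0.43 among neighbours with a median of 0.13. Any part of chromosome copy number in these differences was not tested.

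**Figure D4:**
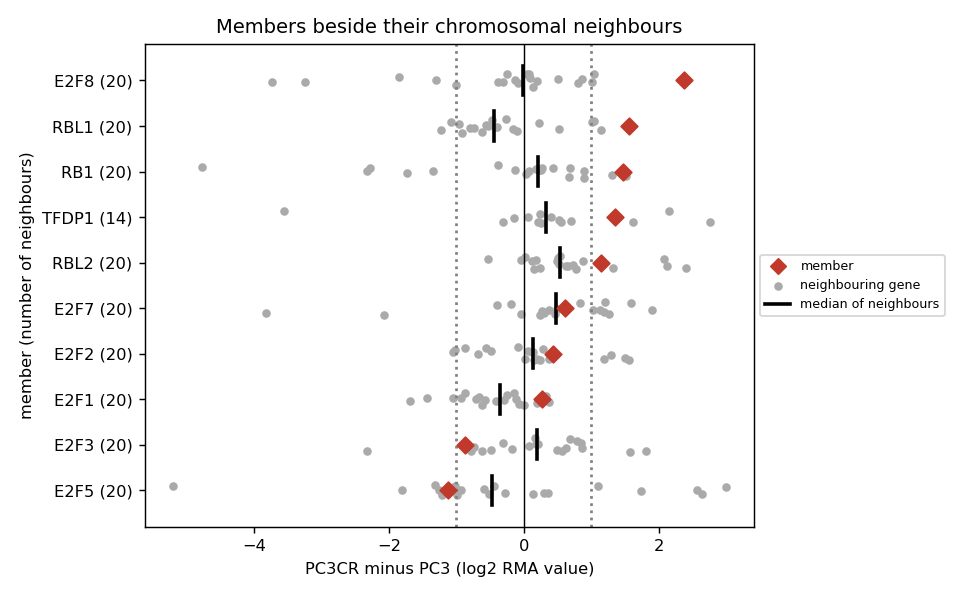
PC3CR minus PC3 (log2 RMA value, horizontal axis) for each member (red diamond) and its nearest measured genes on the chromosome (grey points, number in brackets), with black bars for the median of the neighbours and dotted lines at 2-fold. The diamonds of E2F8 and RBL1, from the brightest probe set, lie to the right of all their neighbours, but RBL1 did not reach the signal level asked of neighbours.

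The arrays were alike in scale, as RMA makes them, with a median over genes of 6.05 in PC3CR and 5.93 in PC3. The Pearson correlation was 0.942 across genes, which are not independent replicates. None of 12 measured control genes passed 2-fold, and their median difference was 0.09. Their differences ran between -0.34 and 0.75 (SDHA), a range that takes in those of E2F7, E2F2 and E2F1. Of 4 epithelial markers 2 were higher in PC3CR and 2 lower, 1 of the lower past 2-fold, around a median difference of -0.30. KRT8 was at 9.79 in PC3CR and 9.72 in PC3 and KRT18 was at 12.36 in PC3CR and 11.69 in PC3. EPCAM was at 8.57 in PC3CR and 11.07 in PC3. CDH1 was at 8.08 in PC3CR and 8.75 in PC3, lower in both of its probe sets. The 3 measured luminal prostate markers lay within 2-fold, between -0.45 (TMPRSS2, lower in all 4 of its probe sets) and 0.04 (KLK3). KLK3 was at 8.08 in PC3CR and 8.04 in PC3 on 1 probe set, but its others were at 4.25 and 4.58 in PC3CR and at 4.21 and 5.10 in PC3. Of 5 fibroblast markers 1 passed 2-fold, downward, and the differences ran between -2.12 (COL1A1) and 0.90 (LUM). COL1A1 was at 6.56 in PC3CR and 8.69 in PC3, and 2 of its 5 probe sets were at least 2-fold lower, while another differed by 0.03 at 7.44 in PC3CR and 7.41 in PC3. The 4 endothelial markers lay within 2-fold, and 3 were under the lower quartile in both PC3CR and PC3. The other, PECAM1, was at 5.81 in PC3CR and 6.41 in PC3 and was lower in all 5 of its probe sets. None of 4 measured leukocyte markers reached the median of genes on either array.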

How the data were processed

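One array per cell line was used, PC3CR and PC3. The deposited values are log2 signals of probe sets that the authors summarized with the robust multichip average (RMA). The submitters' notes list Expression Console 1.4 (Affymetrix) and version 3.1 of the Transcriptome Analysis Console. RMA makes the arrays alike in distribution, so that a change in total RNA per cell is not visible. The probe set identifiers are of the U133 type, whereas the methods name a Gene ST array. Of 54613 probe sets, 41091 had 1 gene symbol in the platform annotation, 1801 had several and 11721 had none there. Symbols were updated through Entrez IDs to RefSeq (GRCh38.p14) for 41037, which served for names and the order of genes. No probe set with several symbols named a member.

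Each of 19775 genes was read from its probe set with the highest mean of both arrays. Genes at 1 or more, or -1 or less, were counted. With 1 array per cell line no test was run, and precision is limited by having 2 arrays. The members and lists were chosen with earlier results of these data known. All members were named, with up to 4 genes past 2-fold in each pathway list, or the 2 furthest from 0 where none was. Marker lists were summarized whole, and the markers named with values were chosen with those values known. Promoter words and chromosomal neighbours were read with the members' values known. The alternatives were fold limits of 1.5 and 3, the mean or median of probe sets, loess centring (span 0.4), quantile normalization and a floor, by which the brighter array had to reach the median of genes. A value was taken as moved past 0.1 on the log2 scale and a count past 1.5 times. The code was checked on simulated data with a chosen noise level, in which all probe sets of a gene shared the same effect. That check does not measure the noise of these arrays. Software was Python 3.11.15 with pandas 2.3.3, numpy 2.4.6, matplotlib 3.10.9 and statsmodels 0.14.6.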

Additional observations from a re-analysis of the deposited data

How the results depend on the processing

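None of the 10 members changed sign under the alternatives run, and 4 of 48 recomputed differences crossed 2-fold, those of RB1 and RBL1 as the mean or the median of their probe sets. The members at least 2-fold higher were 3 as the mean and 3 as the median of probe sets, and 1 at a fold limit of 3. The members at least 2-fold lower were 2 at a fold limit of 1.5 and 0 at 3. The pocket protein median was 0.99 as the mean and 0.99 as the median of probe sets, 1.35 after loess centring and 1.31 with the floor, which left out RBL1. The repressive E2F median was 0.24 as the mean and 0.24 as the median of probe sets, 0.49 after loess centring and 0.44 after quantile normalization. The activating E2F median was 0.0075 as the median of probe sets, 0.15 after loess centring, 0.11 after quantile normalization and -0.30 with the floor, which left out E2F2 and leaves E2F1 and E2F3. Apart from these floors, the cause was not tested. Of 150 recomputed list counts 13 moved and of 74 list medians 32 moved. The G1/S and G2/M medians were 0.89 and 1.43 as the mean of probe sets. Values below the lower quartile, such as RBL1 in PC3, lie near the array floor and bound no fold. No paired analysis was possible because each cell line has 1 array.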

Other observations

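Among 14 measured corepressors that pocket proteins recruit, 2 passed 2-fold upward in PC3CR, 2 downward and 10 neither way, around a median difference of 0.19. That is 14.3% each way in a small list, where the shares over all genes were 9.84% upward and 6.72% downward. The lowest and the highest of the 14 were the alternative ATPases of the SWI/SNF chromatin remodelling complex. SMARCA4 (BRG1) was at 6.68 in PC3CR and 9.79 in PC3, a difference of -3.11, and 6 of its 9 probe sets were at least 2-fold lower. SMARCA2 (BRM) was at 7.16 in PC3CR and 4.79 in PC3, a difference of 2.37, and 3 of its 7 probe sets were at least 2-fold higher. ARID4B, a subunit of the SIN3 complex, differed by 1.35. KMT5B, a histone H4 methyltransferase, differed by -1.15 at its brightest probe set, but its other probe sets were at least 2-fold higher, at 1.08 and 1.07, and the mean over all 3 was 0.33, so its direction is not settled. As the mean of probe sets 1 of the 14 passed 2-fold upward and 1 downward.

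Of 9 measured apoptosis genes that have been described as E2F1 targets, 3 passed 2-fold upward and none downward, around a median of -0.13, or 0.02 with the floor on signal. For this small list and the next, the shares over all genes were 9.84% upward and 6.72% downward. TP53INP1, a stress-induced p53 cofactor, differed by 1.78, APAF1, the scaffold of the apoptosome, by 1.48, and CASP8AP2 by 1.04, but as the mean or the median of probe sets none of the 9 passed 2-fold. Of 9 genes of ubiquitin ligases that act on E2F or pocket proteins or on their regulators, 2 passed 2-fold upward and none downward, around a median of 0.35. The list shares 1 gene with the G1/S targets of E2F. SKP2, the F-box protein that marks p27 for destruction, was at 9.64 in PC3CR and 7.67 in PC3, and all 3 of its probe sets were at least 2-fold higher, by 1.74 or more. FBXO5 (EMI1), an E2F target that restrains the anaphase promoting complex, was at 7.93 in PC3CR and 6.24 in PC3, with both probe sets at least 2-fold higher.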
